A study of Mus musculus with 9 samples.

Results

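The insulin-like growth factor 1 (IGF1) and insulin pathway was followed through loss and return of load in mouse gastrocnemius, the large calf muscle, by the mRNA levels of 10 genes. They were chosen by name as components of the pathway, with earlier results of these data known. They are the growth factor gene Igf1, the receptor genes Igf1r and Insr, and the receptor substrate genes Irs1 and Irs2. The binding protein genes are Igfbp3, Igfbp4, Igfbp5, Igfbp6 and Igfbp7. All 10 were found by symbol and Ensembl identifier among the 55487 genes of the count table, and all 10 passed the filter on low counts that left 14851 genes for testing. Their lowest and highest summed counts over the 9 libraries were 1670 for Igfbp3 and 74793 for Igfbp5.

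The libraries came from wild-type C57BL/6 mice, given as C57BL/6J in the study's text, and fell into 3 groups. Control mice (n = 4) were kept in conventional cages, Unloading mice (n = 2) had their hindlimbs lifted off the floor by a line at the tail for 10 days, and Reloading mice (n = 3) were unloaded in the same way and then walked on all limbs again for 1 day. The sources used here give no age for these animals. The sample labels name the mice as male and the study's methods describe the procedure in females. The Y-linked gene Ddx3y had 1013 to 1993 counts in every library and Xist, the transcript of the inactive X chromosome in females, had 0 to 5. Each library is taken as 1 animal, although the labels do not say so, and p-values measure the spread between these libraries.

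IGF1 is made in liver and in muscle itself, and muscle IGF1 is known to support fibre growth and repair. IGF1 signals mainly through the IGF1 receptor and insulin through the insulin receptor. Both receptors are tyrosine kinases that phosphorylate the IRS adaptor proteins, which in turn recruit the phosphatidylinositol 3-kinase (PI3K), Akt and mTOR cascade that drives glucose uptake and protein synthesis and holds the FoxO transcription factors out of the nucleus. The IGF binding proteins carry IGF outside the cell, extend its life and, depending on the setting, hold it from the receptor or deliver it. IGFBP7 differs from the others in its weak binding of IGF and is known as a secreted protein of blood vessel walls.

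The libraries held 9252443 to 19612101 counted read pairs, and values are relative counts (CPM, scaled to a fixed library total) with the composition factors of the TMM method, on which 1 count was worth 0.0546 to 0.113 CPM. Skeletal muscle as the source was borne out by its markers, since 10 muscle fibre genes summed to 113546 to 172571 CPM. These markers do not tell gastrocnemius from other skeletal muscles. The TMM factors were 0.928 to 0.960 in the Control and Unloading libraries and 1.11 to 1.13 in the Reloading libraries, and the share of counts from mitochondrial genes was 9.36% to 10.6% and 6.49% to 6.75% respectively. With library totals alone as the scale, Reloading stood 0.27 (log2) above Unloading and 0.25 above Control at the median over all genes, in place of 0.03 and 0.01 with TMM, and the share of called genes that were higher moved from 49.3% to 82.8% and from 50.9% to 80.2%. Control 2 and Reloading 1 held 1086 and 502 counts of Krt2, a keratin of the epidermis, against 0 to 3 in the other 7 libraries.

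With the return of load Igfbp7 and Irs2 rose and Igfbp5 fell. These 3 of the 10 genes were called in Reloading against Unloading at a Benjamini-Hochberg adjusted p under 0.05 in edgeR's quasi-likelihood test. Of all 14851 tested genes 37.5% were called in that comparison, 18.5% higher and 19% lower, so a share of 3 in 10 was close to the background. After 10 days of unloading, Igf1r, Igfbp3 and Igfbp4 were higher than in Control and no member was called lower, where 9.9% of all genes were called, 4.4% higher and 5.5% lower, so that 3 of 10 lay above the background. That count rested on single libraries, with 0 members called higher without Unloading 1 and 1 without Control 3. In Reloading against Unloading the 2 higher became 1 without Unloading 1 or Reloading 2, and the 1 lower became 0 without Unloading 2 or Reloading 2. Against Control, the Reloading muscles had 5 genes called higher (Igf1r, Igfbp3, Igfbp4, Igfbp7 and Irs2) and 2 lower (Igfbp5 and Insr), with 43.5% of all genes called, 22.1% higher and 21.3% lower. Of the 2 lower, 1 was left without Control 1, Control 4, Reloading 1 or Reloading 2. The groups did not overlap in 4 members, 2 in each direction, between Reloading and Unloading beside 60% of all genes (31% higher, 29% lower), 4 members, all higher, between Unloading and Control beside 33% (16.4% higher, 16.6% lower), and 7 members, 5 higher and 2 lower, between Reloading and Control beside 46.9% (24.2% higher, 22.7% lower). The median of the 10 log2 fold changes was -0.02 between Reloading and Unloading (0.03 over all genes), 0.04 between Unloading and Control (-0.00 over all genes) and 0.16 between Reloading and Control (0.01 over all genes). The 3 comparisons share libraries and are not independent of each other. The genes were chosen with earlier results of these data known, so a count above the background is no test of them.

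**Figure D1:**
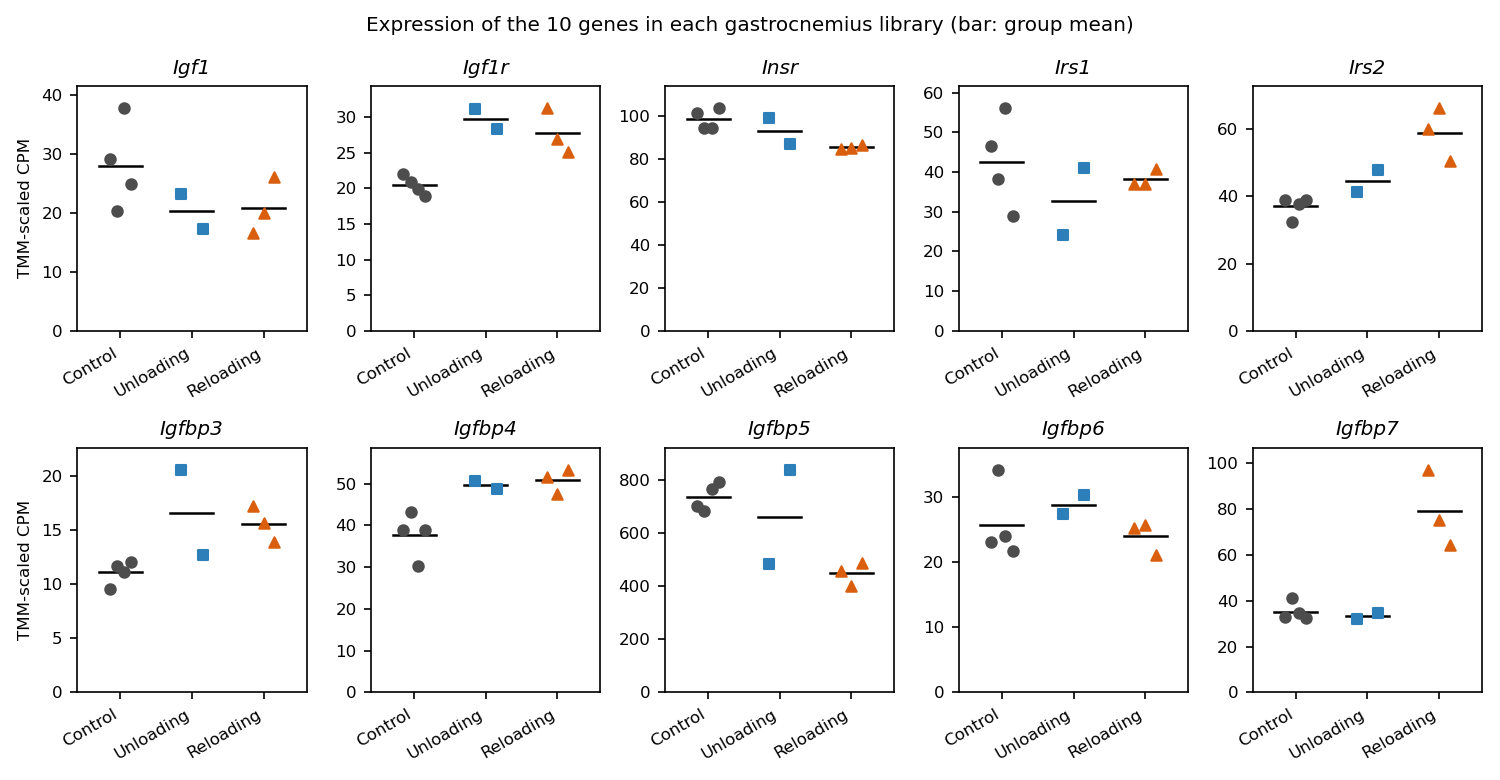
TMM-scaled CPM (vertical axes, from 0) of the 10 genes in each Control (n = 4), Unloading (n = 2) and Reloading (n = 3) library. Points are libraries and bars are group means; Igfbp7 stood at 64.4 to 97.2 CPM in Reloading, above all 6 other libraries, while Igf1 overlapped between all groups.

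Igf1, the ligand, was not called in any comparison. Its level was 29.1, 20.4, 37.8 and 24.9 CPM in Control 1 to 4, 23.3 and 17.3 in Unloading 1 and 2, and 16.6, 19.96 and 26.2 in Reloading 1 to 3. The means were lower with unloading, at 28.0 ± 7.41 (SD, n = 4), 20.3 ± 4.21 (n = 2) and 20.9 ± 4.85 CPM (n = 3), but the libraries of all groups overlapped. The log2 fold change was -0.48 for Unloading against Control (SE 0.21, 95% interval -0.93 to -0.03, edgeR adjusted p = 0.169) and -0.42 for Reloading against Control (SE 0.19, 95% interval -0.82 to -0.02, edgeR adjusted p = 0.0820). For Reloading against Unloading it was 0.06, with an interval of -0.42 to 0.53. The values against Control depended on single libraries, in both directions. For Reloading the difference shrank to -0.24 without Control 3 (edgeR adjusted p = 0.272) and to -0.28 without Reloading 1 (edgeR adjusted p = 0.284), and with library totals as the scale it was -0.18 (edgeR adjusted p = 0.448). For Unloading it was -0.29 without Control 3 (edgeR adjusted p = 0.380) and -0.27 without Unloading 2 (edgeR adjusted p = 0.580). Without Control 2 the Reloading difference was -0.56 (edgeR adjusted p = 0.0138), and without Reloading 3 it was -0.62 (edgeR adjusted p = 0.0248). With the replicate numbers of the sample titles as a block it was -0.45 (edgeR adjusted p = 0.0179), and with those of the descriptions -0.40 (edgeR adjusted p = 0.0270). Neither numbering is known to match animals. Without the filter on low counts Igf1 was called lower in both comparisons with Control (-0.45, edgeR adjusted p = 0.00349, and -0.41, edgeR adjusted p = 0.000405), and without both Control 2 and Reloading 1 it was called lower after unloading (-0.61, edgeR adjusted p = 0.0458). Igf1 lies on chromosome 10 (GRCm38, 87858265 to 87937042, plus strand) and its antisense gene Igf1os, with 21 counts in all, shares 0 exon bases with it.

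The IGF1 receptor gene rose with unloading and stayed above Control after 1 day of load. Igf1r had 22.0, 20.9, 19.9 and 19.0 CPM in Control 1 to 4, 31.1 and 28.4 in Unloading, and 31.3, 26.9 and 25.2 in Reloading, so that every unloaded or reloaded library lay above every Control library. The log2 fold change was 0.54 for Unloading against Control (SE 0.10, 1.46-fold, edgeR adjusted p = 0.00484) and 0.44 for Reloading against Control (SE 0.09, 1.36-fold, edgeR adjusted p = 0.00126). Between Reloading and Unloading it was -0.10 with a 95% interval of -0.33 to 0.13. Without Unloading 1 the unloading difference was 0.48 and no longer called (edgeR adjusted p = 0.106), whereas the Reloading difference was called in all 20 alternative fits. The gene lies on chromosome 7 (67952827 to 68233668, plus strand).

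Insr, which encodes the insulin receptor, was 1.15-fold lower in Reloading than in Control. It had 101.7, 94.8, 94.5 and 104 CPM in the Control libraries, 99.4 and 87.3 in Unloading, and 84.9, 85.4 and 86.8 in Reloading, where no Reloading library reached the lowest of the 6 others. The log2 fold change against Control was -0.20 (SE 0.07, 95% interval -0.35 to -0.06, edgeR adjusted p = 0.0240). That small difference turned to 0.04 with library totals as the scale and lost its call when any 1 of Control 1, Control 4, Reloading 1 or Reloading 2 was left out (edgeR adjusted p = 0.0532 to 0.0672). For Unloading against Control the log2 fold change was -0.08 (95% interval -0.24 to 0.08) and for Reloading against Unloading -0.12 (-0.29 to 0.05).

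A ratio of the 2 receptor transcripts within a library does not depend on the scale between libraries. Per unit of transcript length (RPKM, the TMM-scaled CPM per kilobase of exon), the level of Igf1r over that of Insr was 0.150 to 0.180 in Control, 0.256 and 0.267 in Unloading, and 0.237 to 0.301 in Reloading. The Control ratios lay below those of all 5 other libraries, and those of Unloading and Reloading overlapped. No test was run on the ratios. The smallest two-sided p that an exact rank-sum test can reach here is 0.2 between Reloading and Unloading, 0.133 between Unloading and Control and 0.0571 between Reloading and Control. Insr was the more abundant in every library.

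**Figure D2:**
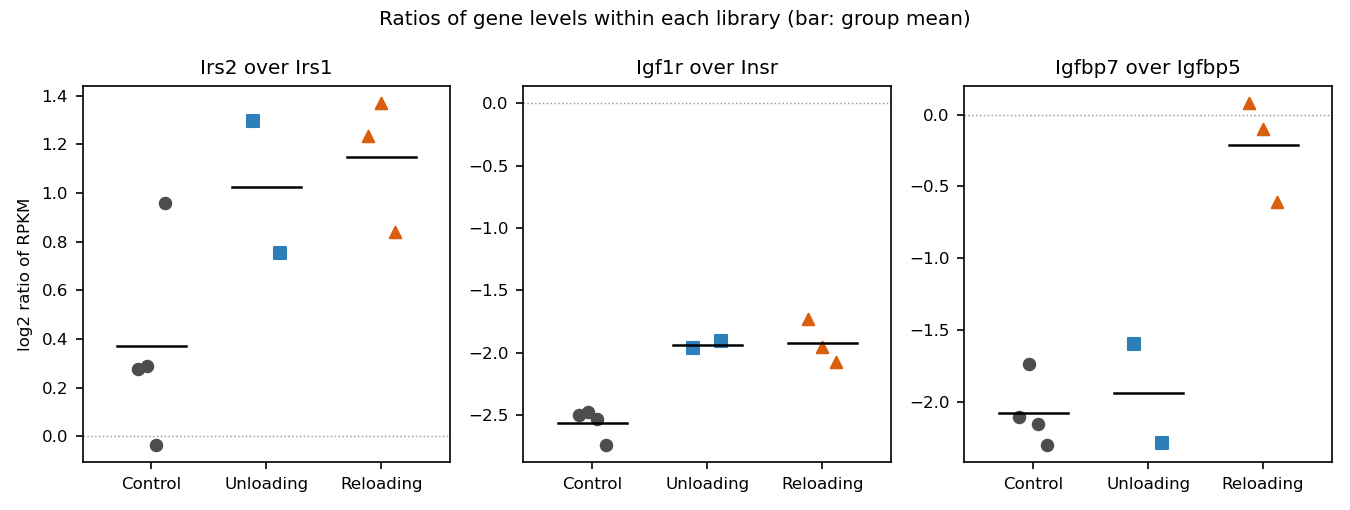
Log2 ratio of RPKM (vertical axes) for Irs2 over Irs1, Igf1r over Insr and Igfbp7 over Igfbp5 within each library; points are libraries, bars are group means and the dotted line marks equal levels. Igf1r over Insr was 0.150 to 0.180 as a linear ratio in Control and above 0.237 in the 5 other libraries, and Igfbp7 over Igfbp5 was 0.656 to 1.06 in Reloading against 0.203 to 0.330 elsewhere.

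Of the receptor substrates, Irs2 rose with the return of load and Irs1 did not pass the test in any comparison. Irs2 had 38.9, 32.3, 37.8 and 39.0 CPM in the Control libraries, 41.2 and 47.8 in Unloading, and 60.1, 66.2 and 50.5 in Reloading. The groups did not overlap in any of the 3 comparisons, with Unloading above Control and Reloading above both. In the test the log2 fold change was 0.40 from Unloading to Reloading (SE 0.11, 1.32-fold, edgeR adjusted p = 0.0131) and 0.67 from Control to Reloading (SE 0.10, 1.59-fold, edgeR adjusted p = 5.78e-05). The step from Control to Unloading, 0.27 (95% interval 0.04 to 0.51), was called only without the filter on low counts (0.31, edgeR adjusted p = 0.0309, against 0.133 in the reported fit). The call at reloading was lost without Unloading 1 (0.29, edgeR adjusted p = 0.141) or without Reloading 2 (0.30, edgeR adjusted p = 0.0694). The difference from Control was called in all 20 alternative fits, at 0.57 to 0.91.

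Irs1 varied widely within groups. It had 46.5, 38.3, 56.1 and 29.0 CPM in Control, 24.3 and 41.0 in Unloading, and 37.0, 37.0 and 40.8 in Reloading, with overlap in every comparison. Its log2 fold changes were -0.37 (95% interval -0.82 to 0.08) from Control to Unloading, 0.22 (-0.25 to 0.69) from Unloading to Reloading and -0.15 (-0.55 to 0.24) from Control to Reloading, of which the first was called without the filter on low counts (-0.33, edgeR adjusted p = 0.0244). That first value rested on single libraries, at -0.05 without Unloading 1 (edgeR adjusted p = 0.954), -0.19 without Control 3 (edgeR adjusted p = 0.592) and -0.81 without Unloading 2 (edgeR adjusted p = 0.0587). Per length, Irs2 over Irs1 was 0.975 to 1.94 in Control, 1.68 and 2.46 in Unloading and 1.79 to 2.58 in Reloading, so Irs2 was the more abundant substrate transcript in every library but Control 3. The ratios of all 3 groups overlapped. On the unstranded counts, 2822 exon bases of Irs1 overlap the opposite gene Gm9747, which held 0 counts, and 162 bases of Irs2 overlap 9530052E02Rik, which held 46.

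The Irs2 promoter is shown because Irs2 was the substrate that moved. It spans chr8:11008930-11009179 on the minus strand of GRCm38.p6 and is the 250 bases before the RefSeq start of the gene, which lies 471 bases from the start of the counted gene model. It is printed 5′ to 3′ with motif matches in capitals.
Irs2: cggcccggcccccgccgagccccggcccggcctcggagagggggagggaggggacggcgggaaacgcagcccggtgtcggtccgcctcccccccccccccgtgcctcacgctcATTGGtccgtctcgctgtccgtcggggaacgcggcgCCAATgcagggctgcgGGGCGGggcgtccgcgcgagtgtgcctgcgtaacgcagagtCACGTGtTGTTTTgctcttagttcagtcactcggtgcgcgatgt
Capitals mark a pair of CCAAT boxes (CCAAT), a GC box (GGGCGG), the FoxO insulin response core (TGTTTT) and the hypoxia response core (ACGTG), the last found on both strands in 1 overlapping place. In the 32851 promoters of the RefSeq table, CCAAT was present in 37.4%, GGGCGG in 35.7%, TGTTTT in 22.1% and ACGTG in 19.6%. Each search covered both strands of the 300 bases from 250 before to 50 after the start. A match describes letters and is not evidence of binding.

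The binding proteins held both the largest rise and the largest fall among the 10 genes. Igfbp7 had 32.8, 41.4, 34.5 and 32.3 CPM in Control, 32.1 and 34.6 in Unloading, and 97.2, 75.4 and 64.4 in Reloading. The Reloading libraries were all above the 6 others, and Control and Unloading overlapped. The log2 fold change was 1.24 from Unloading to Reloading (SE 0.15, 2.36-fold, edgeR adjusted p = 1.60e-05) and 1.16 for Reloading against Control (SE 0.12, 2.23-fold, edgeR adjusted p = 2.42e-06), and -0.08 for Unloading against Control (95% interval -0.38 to 0.22). Both Reloading differences were called in all 20 alternative fits, at 1.06 to 1.49 and 0.99 to 1.40. Of the 1209 exon bases of Igfbp7, 85 overlap Polr2b on the other strand.

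Markers of several cell types moved with Igfbp7. The summed level of 9 endothelial markers, the cells that line blood vessels, was 215 to 244 CPM in Control, 207 and 214 in Unloading and 348 to 415 in Reloading, with 8 of the 9 called higher in Reloading against either group. Smooth muscle and pericyte markers summed to 421 to 445, 451 to 486 and 502 to 535 CPM, with 8 of 9 called higher and 1 lower in Reloading against Unloading. Macrophage markers summed to 87.7 to 106, 90.4 to 90.6 and 174 to 197 CPM, with 10 of 12 tested genes called higher in Reloading against Unloading and 8 against Control. The rise was not limited to these lists. Tendon and Schwann cell markers each had 5 of 6 called higher in Reloading against either group. In Reloading against Unloading, fibroblast markers had 4 of 10 called higher and 3 lower, and satellite cell markers 3 of 8 higher and 1 lower. The 10 muscle fibre markers summed to 159442 to 172571 CPM in Control, 159324 and 163865 in Unloading and 113546 to 126291 in Reloading, with 7 called lower in Reloading against either group. None of these lists had a gene at 0 in all libraries. The part of these shifts in the change of Igfbp7, or of the other genes, was not tested. In whole muscle, more cells of a type and more RNA per cell cannot be told apart.

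The Igfbp7 promoter, chr5:77408046-77408295 on the minus strand of GRCm38.p6, starts 4 bases from the counted gene model and is printed as that of the member with the largest rise. That of Igfbp5, chr1:72874866-72875115 on the minus strand and 19 bases from its gene model, is set beside it as that of the member with the largest fall.
Igfbp7: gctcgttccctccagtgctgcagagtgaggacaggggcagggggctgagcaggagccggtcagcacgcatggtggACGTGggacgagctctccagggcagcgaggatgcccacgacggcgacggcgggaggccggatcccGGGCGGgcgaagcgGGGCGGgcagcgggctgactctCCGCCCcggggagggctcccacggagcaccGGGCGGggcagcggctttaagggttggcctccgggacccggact
Igfbp5: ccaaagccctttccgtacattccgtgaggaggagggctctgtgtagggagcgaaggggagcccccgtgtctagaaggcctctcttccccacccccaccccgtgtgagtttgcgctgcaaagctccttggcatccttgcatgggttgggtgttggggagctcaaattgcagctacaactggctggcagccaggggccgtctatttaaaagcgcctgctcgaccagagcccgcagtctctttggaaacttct
In Igfbp7 the capitals mark 4 GC boxes (GGGCGG), 1 of them on the reverse strand, and 1 hypoxia response core (ACGTG). The Igfbp5 stretch held no match to any of the motifs searched. Besides those named for Irs2 these were TATAAA (the TATA box, in 13.6% of all promoters), TGACG (cAMP response element core, 20.8%), TGANTCA (AP-1 site, 7.81%), GTAAACA (FoxO site, 3.65%) and a narrow form of the CArG box of serum response factor (0.0639%). The GC content of the 300 bases was 73.3% for Igfbp7 and 56.3% for Igfbp5, beside a median of 52.7% over all promoters.

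Igfbp5, the binding protein with by far the most counts, fell with reloading. Its level was 703, 684, 765 and 793 CPM in Control 1 to 4, 483 and 838 in Unloading 1 and 2, and 457, 401 and 488 in Reloading 1 to 3. All Reloading libraries lay below all Control libraries, while the 2 Unloading libraries stood far apart, one beside Reloading and one above all Control libraries. Against Control the log2 fold change in Reloading was -0.71 (SE 0.14, 1.64-fold lower, edgeR adjusted p = 0.000618), and it was called in all 20 alternative fits. Against Unloading it was -0.56 (SE 0.16, 1.47-fold lower, edgeR adjusted p = 0.0123). The fall against Unloading rested on Unloading 2: without that library it was -0.11 (edgeR adjusted p = 0.515), without Unloading 1 it was -0.91, and without Reloading 2 it was -0.49 (edgeR adjusted p = 0.0525). The same library decided the comparison with Control. The difference of Unloading from Control was -0.16 (95% interval -0.48 to 0.17) with both libraries, -0.61 and called without Unloading 2 (edgeR adjusted p = 0.00813), and 0.19 without Unloading 1 (edgeR adjusted p = 0.481).

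Igfbp4, a binding protein known mainly to restrain IGF action until it is cleaved, was higher in both unloaded and reloaded muscle. It had 38.8, 43.2, 30.2 and 39.0 CPM in Control, 50.5 and 48.6 in Unloading, and 51.5, 47.4 and 53.3 in Reloading, with all 5 later libraries above all 4 Control libraries. The log2 fold change was 0.39 for Unloading against Control (SE 0.11, 1.31-fold, edgeR adjusted p = 0.0335) and 0.43 for Reloading against Control (SE 0.10, 1.35-fold, edgeR adjusted p = 0.00243). Between Reloading and Unloading it was 0.03 (95% interval -0.21 to 0.28). The call at unloading was lost without Control 3 (0.30, edgeR adjusted p = 0.0619), Unloading 1 (0.37, edgeR adjusted p = 0.252) or Unloading 2 (0.42, edgeR adjusted p = 0.0844).

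Igfbp3, the main carrier of IGF1 in blood, was likewise higher than in Control in both other groups. It had 9.59, 11.7, 11.1 and 12.1 CPM in Control, 20.6 and 12.7 in Unloading, and 17.2, 15.6 and 13.9 in Reloading, again without overlap between Control and the other groups. Its log2 fold change was 0.56 for Unloading against Control (SE 0.16, 1.47-fold, edgeR adjusted p = 0.0446) and 0.48 for Reloading against Control (SE 0.15, 1.39-fold, edgeR adjusted p = 0.0179). Between Reloading and Unloading the 95% interval was -0.44 to 0.28. The unloading value was carried by Unloading 1, without which it was 0.18 (edgeR adjusted p = 0.657) and with which alone it was 0.88, and it lost its call in 11 of the 20 alternative fits. The Reloading value lost its call without Reloading 1 (0.40, edgeR adjusted p = 0.0742) and without both Control 2 and Reloading 1 (0.42, edgeR adjusted p = 0.0856).

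Igfbp6, which prefers IGF2 over IGF1, was not called in any comparison. It had 23.0, 34.2, 24.0 and 21.6 CPM in Control, 27.3 and 30.3 in Unloading, and 25.1, 25.7 and 21.1 in Reloading. Both Unloading libraries were above the Reloading libraries, but the log2 fold change of -0.27 (95% interval -0.60 to 0.07) did not pass the test (edgeR adjusted p = 0.194). Its highest value was in Control 2, the library with the most Krt2 counts.

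The scale moved several of these values, some without ending a call. With library totals alone, the differences of Reloading from Control were 0.68 for Igf1r, 0.72 for Igfbp3, 0.67 for Igfbp4 and -0.48 for Igfbp5, and that of Irs2 from Unloading was 0.65. The same scale ended the call of Igfbp5 in Reloading against Unloading (-0.31, edgeR adjusted p = 0.116), which a robust fit of the spread also ended (edgeR adjusted p = 0.0866). Library totals likewise ended the calls of Insr in Reloading against Control (0.04, edgeR adjusted p = 0.676) and Igfbp3 in Unloading against Control (0.55, edgeR adjusted p = 0.0505).

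**Figure D3:**
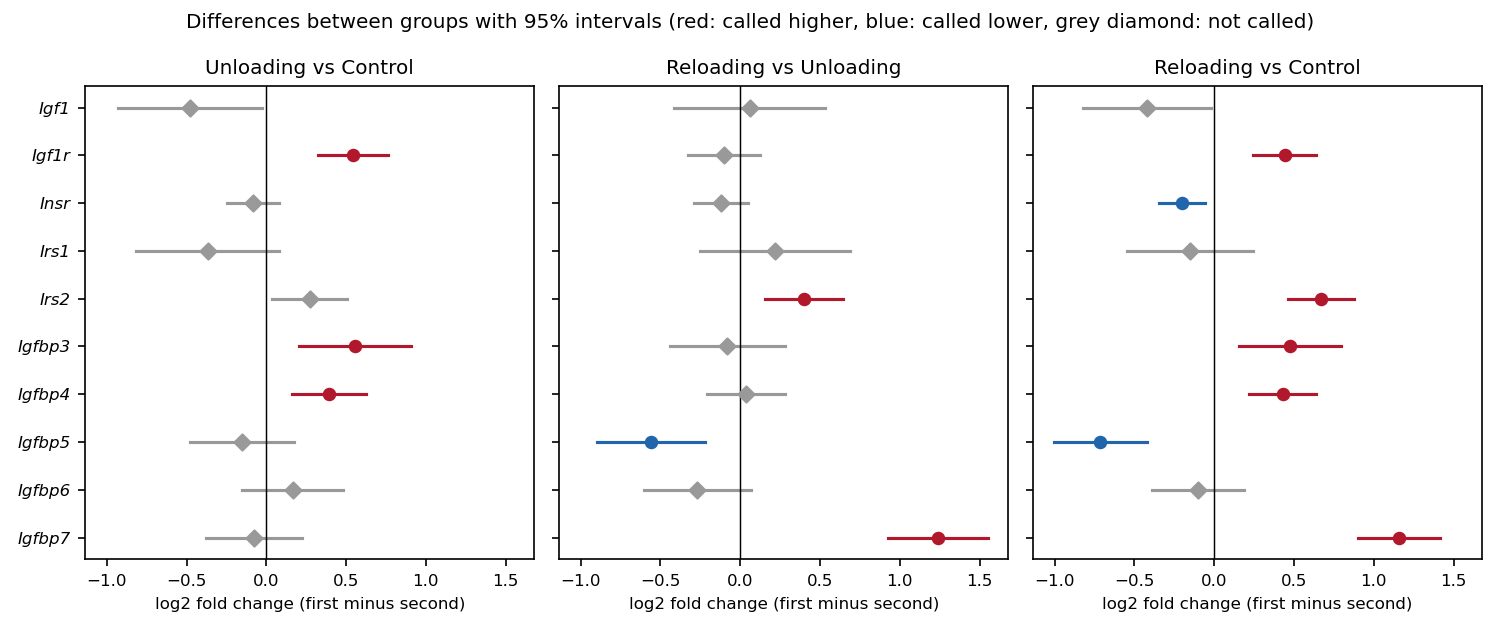
Log2 fold change of each of the 10 genes (horizontal axes, first group minus second) with its 95% interval, for Unloading less Control, Reloading less Unloading and Reloading less Control. Red marks genes called higher, blue genes called lower and grey diamonds genes not called in edgeR's test; Igfbp7 at 1.24 and 1.16 stood farthest from 0.

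Set side by side per length, the 10 transcripts spanned from 1.22 RPKM for Igf1r to 123 RPKM for Igfbp5 in Control muscle, a range of 101-fold. The Control order by mean was Igfbp5, Igfbp7 (29.2 RPKM), Igfbp6 (23.1), Igfbp4 (8.56), Insr (7.18), Irs2 (5.85), Irs1 (4.64), Igfbp3 (3.56), Igf1 (2.83) and Igf1r. Neighbours whose Control libraries overlapped were Igfbp7 with Igfbp6, Igfbp4 with Insr, Irs2 with Irs1, Irs1 with Igfbp3, and Igfbp3 with Igf1. In Reloading, Igfbp5 at 74.7 ± 7.34 RPKM (SD, n = 3) and Igfbp7 at 65.3 ± 13.8 RPKM overlapped, and Irs2 at 9.32 ± 1.25 RPKM stood above Insr at 6.24 ± 0.0713 RPKM in all libraries. Igf1 and Igf1r, which are separate in Control, overlapped in both Unloading and Reloading. Igfbp5 made up 58.7% of the summed RPKM of the 10 genes in Control, 53.7% in Unloading and 37.2% in Reloading, as means over libraries. The ratio of Igfbp7 to Igfbp5 was 0.203 to 0.301 in Control, 0.330 and 0.205 in Unloading and 1.06, 0.934 and 0.656 in Reloading, where it did not overlap with the other groups.

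**Figure D4:**
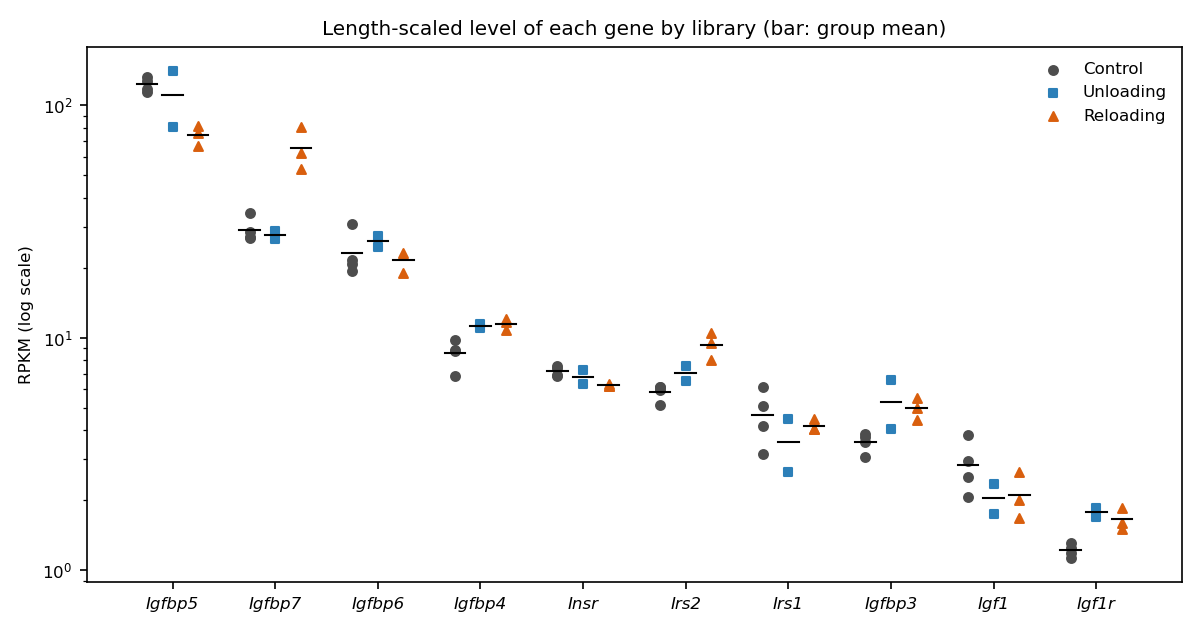
Level of each gene in TMM-scaled RPKM (vertical axis, log scale) in Control, Unloading and Reloading libraries, ordered by the Control mean. Points are libraries and bars group means; Igfbp5 was highest at 123 RPKM and Igf1r lowest at 1.22 RPKM in Control, and the Igfbp7 libraries of Reloading reached those of Igfbp5.

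Over the 9 libraries, the members that varied most alike were Igf1r with Igfbp3 (Pearson r = 0.81), Igfbp7 with Irs2 (0.81) and Igf1r with Igfbp4 (0.80), and those that varied most oppositely were Igfbp7 with Insr (r = -0.80), Insr with Irs2 (-0.78) and Igfbp5 with Igfbp7 (-0.76). Among 9867 other named genes, those most like Igf1 were Fbh1 (r = 0.90), Mvk (0.88) and Pdgfa (0.86). For Igfbp5 they were Wbp1, Gtf2i and Gm15417, at 0.98, 0.97 and 0.97, and for Irs2 they were Sfrp5, Dab2 and Kif3b, at 0.97, 0.97 and 0.96. The 9 points share the 3 groups, the scaling and the depth of the libraries, so these values describe the libraries and carry no test.

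A wider view of the pathway came from 133 other genes in 8 lists, of which 121 could be tested. In Reloading against Unloading 35 of the 121 were higher and 32 lower, or 28.9% and 26.4%, beside 18.5% and 19% of all genes. In Unloading against Control 11 were higher and 7 lower (9.09% and 5.79%, beside 4.4% and 5.5% of all genes), and in Reloading against Control 36 were higher and 24 lower (29.8% and 19.8%, beside 22.1% and 21.3%). The counts of each list below stand against the same shares of all genes. The lists were chosen with earlier results of these data known, so a share above that of all genes is no test of them. Insulin transcripts were at the floor of detection, with 0 counts of Ins1 and 2 of Ins2 in all libraries together, and among the other binding proteins Igfbp1 had 0 counts and Igfbp2 had 15. The counts at unloading leaned on Unloading 1, without which 2 were higher and 0 lower, and without Control 3 there were 7 higher. Without Unloading 1, 22 were higher in Reloading against Unloading.

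**Figure D5:**
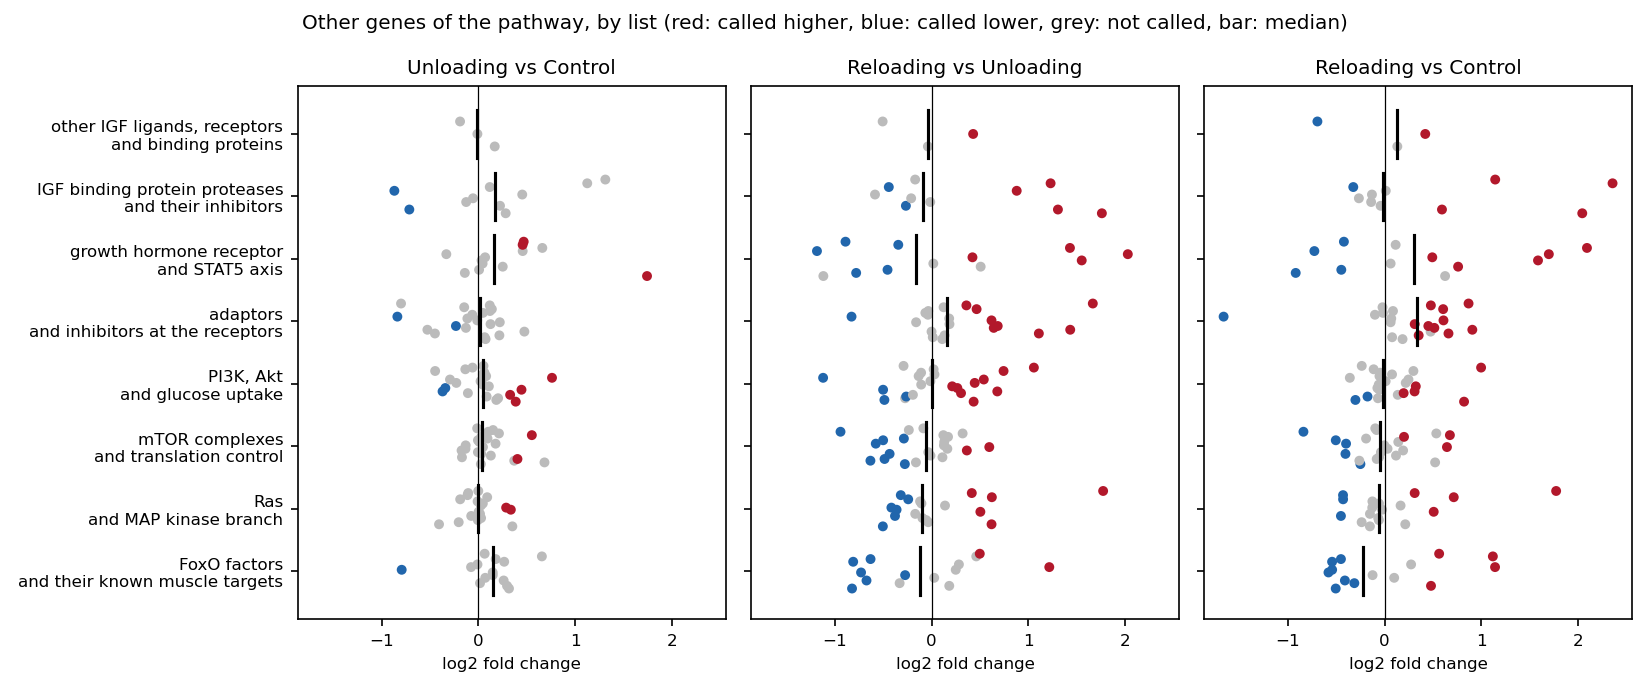
Log2 fold change (horizontal axes) of the 121 tested pathway genes beyond the 10, by list, for the 3 comparisons. Each point is a gene, red if called higher, blue if called lower and grey if not called, and bars are list medians; in the list of adaptors and inhibitors at the receptors, 10 of 20 genes were called higher for Reloading less Control.

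Outside the cell, Igf2 stayed low, at 1.06 to 1.77 CPM over all libraries, and was not called in any comparison. Igf2r, the receptor that removes IGF2 and carries lysosomal enzymes, had 74.0 to 78.2 CPM in Control, 81.4 and 71.1 in Unloading, and 104, 101 and 103 in Reloading. It was higher in Reloading than in Unloading (log2 fold change 0.43, SE 0.08, edgeR adjusted p = 0.000552) and than in Control (0.42, SE 0.06, edgeR adjusted p = 9.73e-05). Igfals, the third component of the circulating IGF complex, was lower in Reloading than in Control (-0.70, edgeR adjusted p = 0.00583).

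The list of proteases that cut IGF binding proteins, and of their inhibitors, also held proprotein convertases and an insulin-degrading protease. Of its 10 tested genes, 4 were higher and 2 lower in Reloading against Unloading, and 2 were lower in Unloading against Control. The 2 lower in Reloading against Unloading were both proprotein convertases. Pappa, the protease that cleaves IGFBP4, had 21.8, 15.6, 24.2 and 24.4 CPM in Control, 10.9 and 12.6 in Unloading, and 23.1, 26.0 and 16.0 in Reloading. It fell by 0.87 on the log2 scale with unloading (SE 0.20, edgeR adjusted p = 0.0129) and rose by 0.88 with reloading (SE 0.20, edgeR adjusted p = 0.00336), and both Unloading libraries lay below all 7 others. Adamts1, another secreted protease, followed at 44.3 to 59.2, 25.2 and 36.6, and 64.2 to 86.2 CPM, with a log2 fold change of -0.71 at unloading (edgeR adjusted p = 0.00940) and 1.31 at reloading (edgeR adjusted p = 2.03e-05). The unloading calls of Pappa and Adamts1 were lost without Unloading 1 (-0.77, edgeR adjusted p = 0.185, and -0.48, edgeR adjusted p = 0.202). Stc1, an inhibitor of PAPPA, and Adam12 were near 1 CPM in Reloading and higher there than in Control, by 2.35 and 2.04 on the log2 scale (edgeR adjusted p = 5.78e-05 and 0.000904). Each had only 2 to 4 counts in a Control library, so the size of these changes rests on values near the floor.

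The growth hormone axis, which drives IGF1 production, had 4 of 12 genes higher and 5 lower in Reloading against Unloading, and 5 higher and 4 lower against Control. Ghr, the growth hormone receptor, had 175 to 213 CPM in Control, 172 and 176 in Unloading, and 93.6, 101 and 109 in Reloading. The log2 fold change was -0.78 against Unloading (SE 0.10, edgeR adjusted p = 2.27e-05) and -0.92 against Control (SE 0.08, edgeR adjusted p = 6.92e-07). Stat5b, the transcription factor downstream of that receptor, rose from 279 ± 13.1 CPM (SD, n = 4) to 386 ± 8.55 (n = 2) with unloading (log2 fold change 0.47, edgeR adjusted p = 0.00224) and fell to 208 ± 15.4 (n = 3) with reloading (-0.89, edgeR adjusted p = 1.20e-06). Among the feedback inhibitors, Cish was higher in Unloading than in Control (1.74, edgeR adjusted p = 0.0200). That call was lost without either Unloading library (1.99 without Unloading 1 and 1.43 without Unloading 2). It was also lost in the DESeq2 Wald test (adjusted p = 0.104), a robust fit (edgeR adjusted p = 0.16) and a block by title numbers (edgeR adjusted p = 0.129). Socs3, which is also induced by cytokines, rose in Reloading, from 4.12 and 5.85 CPM in Unloading to 20.7, 10.3 and 10.2 (1.43, edgeR adjusted p = 0.00212). Socs1 rose as well (2.03, edgeR adjusted p = 0.0116), but its call was lost without Reloading 1 (1.27, edgeR adjusted p = 0.0522) or without Unloading 1 (1.74). Socs1 had only 6 and 14 counts in Unloading and 60, 31 and 13 in Reloading, so the size of its change rests on low counts. Socs2, the inhibitor of growth hormone signalling named here after its values were seen, went the other way, from 21.0 and 30.9 CPM in Unloading to 9.67, 10.8 and 13.8 in Reloading (-1.18, edgeR adjusted p = 0.00110). It was also lower in Reloading than in Control (-0.73, edgeR adjusted p = 0.0113), though not without Reloading 1 (-0.62, edgeR adjusted p = 0.0503).

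At the receptors, 8 of 20 adaptors and inhibitors were higher and 1 lower in Reloading against Unloading, and 10 were higher and 1 lower against Control. The gene that fell, Grb14, encodes an inhibitor of the insulin receptor kinase. Its level was 14.7 to 21.1 CPM in Control, 6.36 and 11.9 in Unloading, and 4.59, 4.70 and 6.29 in Reloading, with a log2 fold change of -1.66 for Reloading against Control (SE 0.20, 3.17-fold lower, edgeR adjusted p = 1.21e-05). It was also lower in Unloading than in Control (-0.84, edgeR adjusted p = 0.0224) and in Reloading than in Unloading (-0.83, edgeR adjusted p = 0.0138), the former not without Unloading 1 (-0.48, edgeR adjusted p = 0.319, against -1.38 without Unloading 2) and the latter not without Unloading 2 (-0.29, edgeR adjusted p = 0.434). Among the 8 that rose in Reloading against Unloading were Dok4 (1.43, edgeR adjusted p = 0.00107), an IRS-like docking protein, and Trib3 (1.67, edgeR adjusted p = 0.000885), known as an inhibitor of Akt. Trib3 had only 10 and 11 counts in Unloading and 28, 31 and 29 in Reloading, so the size of its change rests on low counts. Sh2b2, an adaptor of the insulin receptor counted in the growth hormone list, rose as well (1.55, edgeR adjusted p = 0.000186). Fbxo40, the muscle ubiquitin ligase of IRS1, was lower in Unloading than in Control (-0.23, edgeR adjusted p = 0.0454), a call lost in 13 of 20 alternative fits, and higher in Reloading than in Unloading (0.68, edgeR adjusted p = 7.03e-06).

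In the PI3K and Akt list, 9 of 22 genes were higher and 4 lower in Reloading against Unloading. The Akt genes moved apart. Akt1 had 55.7 to 58.7 CPM in Control, 74.8 and 75.9 in Unloading and 97.0 to 105 in Reloading, and was called higher at both steps (log2 fold change 0.39, edgeR adjusted p = 0.00392, and 0.43, edgeR adjusted p = 0.000308), the former not without Unloading 1 (0.40, edgeR adjusted p = 0.0535). Akt2, the main isoform for insulin-stimulated glucose uptake, had 284 to 312, 327 and 348, and 236 to 246 CPM, with a log2 fold change of -0.49 for Reloading against Unloading (edgeR adjusted p = 9.40e-05). Per length Akt2 still exceeded Akt1 in every library. Pik3r1, the regulatory subunit of PI3K, had 32.9 to 49.6 CPM in Control, 87.2 and 46.4 in Unloading and 22.7 to 40.3 in Reloading, and was higher in Unloading than in Control (0.76, edgeR adjusted p = 0.0467) and lower in Reloading than in Unloading (-1.12, edgeR adjusted p = 0.00217). Both Pik3r1 calls were lost without Unloading 1, the former at 0.25 and the latter at -0.61, and without Unloading 2 the former was 1.15. The former was also lost without Control 1, Control 2, Control 3 or Reloading 2 (edgeR adjusted p = 0.0636 to 0.103), and in the DESeq2 Wald test (adjusted p = 0.158). Neither Pik3r1 call held in a robust fit (edgeR adjusted p = 0.23 and 0.0524). Inpp5k, a phosphatase that opposes PI3K, was higher in Unloading than in Control (0.44, edgeR adjusted p = 0.0119), though not without Unloading 1 (0.32, edgeR adjusted p = 0.241). Tbc1d1, an Akt and AMPK substrate that controls glucose transporter traffic, rose from 58.2 and 48.4 CPM to 111, 111 and 110 CPM with reloading (1.06, edgeR adjusted p = 1.62e-05).

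Further down, the mTOR list had 2 of 22 genes higher and 8 lower in Reloading against Unloading. Mtor itself was one of the 2 higher, at 46.7 to 51.6 CPM in Control, 48.5 and 52.1 in Unloading and 71.4 to 80.2 in Reloading (0.60, edgeR adjusted p = 5.67e-05), while Sesn3, a stress-induced inhibitor of mTOR complex 1, fell (-0.94, edgeR adjusted p = 2.19e-05). Ddit4l, an inhibitor of mTOR signalling in muscle, was lower as well (-0.63, edgeR adjusted p = 0.00110). In Unloading against Control the 2 called genes were Sesn1 (0.55, edgeR adjusted p = 0.0195) and Deptor (0.40, edgeR adjusted p = 0.0192), both mTOR inhibitors and both higher, and neither was called without Unloading 1 (0.28 and 0.39, edgeR adjusted p = 0.397 and 0.174). Deptor was not called either without Unloading 2 (edgeR adjusted p = 0.0655) or Control 3 (edgeR adjusted p = 0.0503). In Reloading against Control, Sesn1 was higher (0.67) and Sesn3 lower (-0.84), each called in all 20 alternative fits. Eif4ebp1, the translation repressor controlled by mTOR, was not called in any comparison. The Ras and MAP kinase branch had 5 of 18 higher and 6 lower in Reloading against Unloading. Its feedback inhibitor Spry4 had 2.40 and 3.01 CPM in Unloading and 11.4, 10.6 and 6.29 in Reloading (1.77, edgeR adjusted p = 0.000277). Spred1, another inhibitor of the branch, rose as well (0.62, edgeR adjusted p = 0.00389), though not without Unloading 2 (0.36, edgeR adjusted p = 0.101). In Unloading against Control the GTPase gene Nras was higher (0.33, edgeR adjusted p = 0.0417), though not without Unloading 1 (0.20, edgeR adjusted p = 0.474). Leaving out Control 1, Control 2, Control 3 or Reloading 2 also ended that call (edgeR adjusted p = 0.0515 to 0.0975).

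The FoxO list had 2 of 14 genes higher and 6 lower in Reloading against Unloading, and 4 higher and 7 lower against Control, where 18.5% and 19% of all genes, and 22.1% and 21.3%, were higher and lower. Foxo1 was not called in any comparison, and Foxo3 was lower in Reloading than in Unloading (-0.27, edgeR adjusted p = 0.0421) in 12 of 20 alternative fits. Leaving out Control 1, Unloading 1, Reloading 2 or Reloading 3 each ended that call (edgeR adjusted p = 0.0509 to 0.295). Gabarapl1, an autophagy gene, was one of the 2 higher in Reloading than in Unloading, with 35.5 to 42.0 CPM in Control, 35.9 and 39.6 in Unloading and 76.6 to 97.4 in Reloading (1.22, edgeR adjusted p = 1.05e-06), whereas Bnip3, an inducer of mitophagy, fell (-0.82, edgeR adjusted p = 6.47e-05). The other gene called higher was Trim63, a muscle ubiquitin ligase gene named here after its values were seen, at 281 and 267 CPM in Unloading and 472, 332 and 358 in Reloading (0.50, edgeR adjusted p = 0.00976), and it was not called without Unloading 2 (0.45, edgeR adjusted p = 0.0780). In Unloading against Control 1 gene of the list was called, Foxo6, which was lower (-0.79, edgeR adjusted p = 0.00596), though not without Unloading 1 (edgeR adjusted p = 0.101). Pdk4, the kinase that limits glucose oxidation, was higher in Reloading than in Control (1.12, edgeR adjusted p = 0.000217) and not called in the other comparisons. It had 326 to 506 CPM in Control, 582 and 698 in Unloading, and 1071, 1043 and 532 in Reloading. Both Unloading libraries were thus already above Control, and Unloading and Reloading overlapped.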

How the data were processed

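The authors deposited 1 table of raw read counts per gene for the 9 libraries, made per the labels from poly-A RNA of gastrocnemius (Trizol extraction, TruSeq libraries) with STAR 2.7.3a on GRCm38.p6 and featureCounts 2.0.3. The file header names the annotation of Ensembl release 102. By that header read pairs were counted without regard to strand, whereas the study's methods describe single reads. The deposited DESeq2 tables, with the authors' own fold changes and p-values, served only to pair identifiers with symbols. Of 14851 tested genes, 14823 had the authors' symbol, 23 a reference symbol and 5 none.

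Genes were filtered with filterByExpr (minimum count 10, minimum total 15), scaled by TMM and tested with edgeR 4.0.16 in R 4.3.3. The quasi-likelihood fit used all 9 libraries with group as the only term, and p-values were Benjamini-Hochberg adjusted over all tested genes at 0.05. Log2 fold changes are first group minus second, from the fit itself. The log2 CPM values behind the correlations used a prior count of 2. RPKM divides CPM by kilobases of exon. Single values whose groups are too small for an exact test are given without one. Promoters are RefSeq's (GRCm38.p6); 9 of the 10 members matched. The test was also run on simulated counts with known changes. Its outcome there is not given and backs no single call here.

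The members and the pathway and marker lists were chosen with earlier results of these data known. Named beyond the 10 members were a set of 11 pathway genes (Igf2, Igf2r, Igfbp2, Ghr, Pik3r1, Akt1, Akt2, Foxo1, Foxo3, Mtor and Eif4ebp1) and, per list and comparison, the 2 called genes with the largest change, of which 1 gene is not reported here, and Socs2 and Trim63, added after their values were seen; the genes most alike were the 3 with the highest Pearson r for Igf1, Igfbp5 and Irs2 among genes with a mean log2 CPM of at least 2. The other marker lists gave these summed CPM in Control, Unloading and Reloading: fibroblasts 705 to 1023, 767 to 777 and 901 to 1162, satellite cells 59.7 to 74.5, 62.0 to 68.5 and 76.3 to 84.6, adipocytes 182 to 288, 253 to 265 and 306 to 344, tendon 97.7 to 143, 98.4 to 104 and 187 to 272, Schwann cells 37.9 to 58.7, 42.7 to 54.5 and 94.7 to 131, neutrophils 0.357 to 6.87, 1.20 to 1.20 and 1.80 to 4.89, erythrocytes 51.9 to 172, 67.2 to 120 and 57.2 to 138, and skin 3.14 to 294, 2.84 to 3.00 and 2.31 to 132.

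Sample titles and sample descriptions number the animals differently. Deviations from the group means of same-numbered libraries correlated at -0.20 to 0.075 by title, and by description at 0.36, 0.14 and 0.16 for the 3 pairs of Control with Reloading. The pair at 0.36 was Control 2 with Reloading 1, the libraries with high Krt2 counts. Such correlations cannot show that animals were matched. Both numberings served as blocks only among the alternatives, and blocked values are given for some genes. Alternatives were other scalings, filters, tools, blocks and sets of libraries.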

Additional observations from a re-analysis of the deposited data

Results flagged for a closer look

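Within the 4 Control libraries, 49 genes named in the text were searched for a single library standing apart by Dixon's test, and 1 was found. Chance alone gives about 1 in 20. Grb14 was at 21.1 CPM in Control 2 against 14.7 to 15.4 in the other 3.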

How the results depend on the processing

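Over 20 alternative fits, 536 of 600 member log2 fold changes kept their direction and their side of the threshold, 31 lost their call, 10 gained one and 23 changed sign. For Reloading against Unloading, Igf1 turned to -0.15 with a replicate block by title numbers and -0.10 by description numbers, and ranged over -0.16 to 0.27 when 1 library was left out. Igf1r turned to 0.15 with library totals and 0.052 with the description block, Igfbp3 to 0.17 and 0.043 with the same settings, and Insr to 0.13 with library totals. Without 1 library Igfbp3 ranged over -0.41 to 0.29, Igfbp4 over -0.0015 to 0.076 and Irs1 over -0.10 to 0.65. For Unloading against Control, Igfbp7 turned to 0.0074 without Control 2 and Reloading 1 and ranged over -0.14 to 0.0059 without 1 library, Igfbp5 over -0.61 to 0.19 and Insr over -0.17 to 0.0095. For Reloading against Control, library totals turned Igfbp6 to 0.14, Insr to 0.037 and Irs1 to 0.086, leaving out Control 2 and Reloading 1 turned Igfbp6 to 0.030, and without 1 library Igfbp6 ranged over -0.18 to 0.059 and Irs1 over -0.30 to 0.016. Library totals shift all genes of Reloading upwards by construction, and the other causes were not tested.

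Counts moved by over 1.5 times as follows. With library totals, other pathway genes higher and lower were 56 and 14 for Reloading against Unloading and 65 and 11 against Control, and members lower were 0 and 1. The robust fit left 0 members lower in Reloading against Unloading. With no filter on low counts, 2 members were lower and 20 pathway genes higher in Unloading against Control, and without Control 2 and Reloading 1 there was 1 member lower in that comparison and 1 in Reloading against Control. The title block left 1 member higher and 4 pathway genes lower in Unloading against Control; the blocks changed no other count of calls by over 1.5 times. When 1 library was left out, members higher and lower were 1 to 2 and 0 to 1 for Reloading against Unloading, 0 to 3 and 0 to 1 for Unloading against Control, and 4 to 5 and 1 to 3 for Reloading against Control, and pathway genes higher and lower were 22 to 35 and 23 to 34, 2 to 12 and 0 to 7, and 31 to 38 and 20 to 26.

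Of the 72 called values of pathway genes named in the text, 1353 of 1436 recomputed values kept their call, 83 lost it and 0 changed sign. With 2 Unloading libraries, leaving out 1 leaves a lone library that is assumed to vary like the other groups.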
